A study of Mus musculus with 6 samples.

Results

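The 10 genes described here were grouped as targets of the liver X receptors (LXR) or genes of cholesterol efflux and lipoprotein handling. They are Nr1h3, which encodes an LXR itself, Abca1, Abcg1, Apoe, Apoc2, Lpl, Pltp, Mylip, Soat1 and Nceh1. Membership does not mean that each is an LXR target. They were taken by name, and a gene counted as measured where a probe set of the array carried its symbol and no other. That held for 8 of the 10, out of 19938 genes measured in all, each by 1 probe set. Soat1 and Apoc2 were not analysed here, Apoc2 because its probe set also carries a second symbol. Both populations compared came from tibia and femur bone marrow of C57B/6 mice, grown for 6 days in 20 ng/ml GM-CSF (granulocyte-macrophage colony-stimulating factor, a myeloid growth factor) and left unstimulated. One is labelled dendritic and the other macrophage, with 3 Affymetrix Mouse Gene 1.0 arrays each. The sources used here do not give how the populations were separated, the age of the mice, or whether a replicate is a mouse or a culture, so p-values measure only the spread between these arrays, which may be technical. Values are the deposited log2 values, made by RMA (robust multi-array average), and the number of arrays limits their precision.

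LXRs are nuclear receptors that are activated by oxysterols and bind DNA as a dimer with a retinoid X receptor (RXR). In macrophages their targets move cholesterol out of the cell: ABC transporters pass it to apolipoproteins, and secreted proteins remodel the lipoproteins that carry it. Another target, Mylip, limits the uptake of more cholesterol by sending lipoprotein receptors for degradation. Cholesterol that is kept is stored in droplets as esters, made by Soat1 and hydrolysed again by neutral or lysosomal hydrolases.

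LXR dimers bind direct repeats of a hexamer close to AGGTCA, spaced by 4 bases. Promoter windows of 250 bases before to 50 after the start site were taken from RefSeq (GRCm38.p6), where 8 of the 10 genes were matched by symbol with 11 windows, and Abcg1 and Lpl were not. The exact repeat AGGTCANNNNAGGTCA, searched on both strands, lay in 0 of these 11 windows and in 0.0152% of all 32851 windows. Its shorter core GGTNNNNNNNGGT lay in the window of Abca1 alone among these genes, against 12.1% of all windows. The bases just upstream of the start site are shown for Abca1 and Mylip, called in opposite directions below, and for Nceh1, the gene with the smallest spread over the dendritic arrays. Capitals mark the core repeat (read on the other strand, Abca1 only), TATAAA, and CACGTG.
Abca1, chr4:53159896-53160015, minus strand: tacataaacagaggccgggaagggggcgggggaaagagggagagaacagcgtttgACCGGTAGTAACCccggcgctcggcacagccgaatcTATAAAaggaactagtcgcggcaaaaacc
Mylip, chr13:45389622-45389741, plus strand: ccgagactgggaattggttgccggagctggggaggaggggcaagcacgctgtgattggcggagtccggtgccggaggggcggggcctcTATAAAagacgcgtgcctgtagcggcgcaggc
Nceh1, chr3:27182884-27183003, plus strand: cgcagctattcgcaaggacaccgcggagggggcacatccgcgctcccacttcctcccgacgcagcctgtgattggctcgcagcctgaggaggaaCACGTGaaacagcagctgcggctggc
TATAAA began 29 bases before the start site used for Abca1 and 32 bases before that of Mylip. In RefSeq's gene table Abca1 reaches to position 53159988, within the bases shown, so the start site used is not its outermost one. On either strand TATAAA lay in 4 of the 11 windows (Abca1, Apoe, Mylip and Pltp) and in 13.6% of all windows. In Apoe the matches began 96 and 100 bases before the start site, and in Pltp the match lay after it, at base 37. CACGTG, a palindrome, began 26 bases before the start site in Nceh1, and lay in 2 of the 11 windows (Nceh1 and Abca1, there outside the bases shown) and in 7.15% of all windows. These are matches of letters in a window, not tested binding sites.

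The populations matched their labels by the markers listed for them. The lists were chosen with earlier results of these data known, so the match is not an independent check of the labels. All 7 dendritic markers (among them Flt3, Ccr7 and Fscn1) were higher and all 6 measured macrophage markers (among them Csf1r, Adgre1 and Mertk) were lower in the dendritic arrays, and those macrophage markers lay between 3.91 and 5.72 (log2) there. Of 9 neutrophil markers 2 were lower (Mpo, -0.74, and Mmp8, -5.63) and none was higher, with summed linear values of 2141 to 5318 in dendritic and 4004 to 8102 in macrophage arrays. Mmp8 read 10.67 to 11.13 (log2) in macrophage arrays, against 4.54 to 6.34 in dendritic arrays, and so adds to the macrophage sums. The neutrophil markers other than Mpo and Mmp8, such as S100a8 (-0.21) and Camp (0.31), were not called. The highest sum of each population was that of replicate 1. Of the 4 markers of adipocytes or stroma, cells that can also express Lpl and Apoe, none was called. Their log2 values lay between 3.42 and 5.96 in dendritic and between 3.02 and 5.90 in macrophage arrays, and their summed linear values ran from 93.5 to 126 in dendritic and from 98.2 to 121 in macrophage arrays. Mast cell or basophil, eosinophil, T cell and erythroid markers gave no call, and 1 of 3 B cell markers, Cd79a, was higher (3.85 to 4.07 in dendritic and 2.80 to 3.53 in macrophage arrays). The eosinophil marker Prg2 was uneven between arrays, at 8.37 in macrophage replicate 1, with 4.35 and 6.41 in replicates 2 and 3. In dendritic replicates 1, 2 and 3 it read 6.60, 5.15 and 6.30.

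Efflux and lipoprotein genes mostly fell in the dendritic population. Of the 8 measured, 5 were lower (Abca1, Apoe, Pltp, Lpl and Nceh1), 1 was higher (Mylip), and Nr1h3 and Abcg1 did not pass, by limma with a Benjamini-Hochberg adjusted p under 0.05 over all genes. Over all 19938 genes 21.6% were called, 11.6% lower and 9.98% higher. For 6 of the 8 genes the lowest array of one population lay above the highest of the other, against 34.0% of all genes. The median log2 difference was -2.18 over the 8 genes and 0.03 over all genes. By size of difference in either direction Pltp ranked 88, Apoe 100 and Nceh1 136 among all genes. In these bulk samples, fewer cells that express a gene and less of its RNA per cell cannot be told apart.

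**Figure D1:**
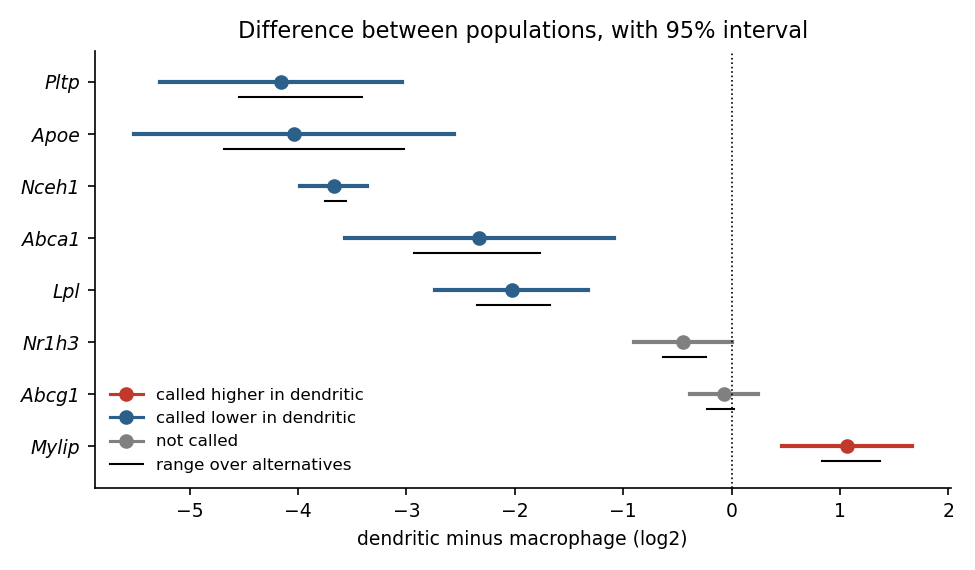
Difference between populations for each gene (x axis, dendritic minus macrophage, log2), as a point with its 95% interval, with the range over the alternative settings as a thin black line below. The intervals of 5 genes lie wholly below 0 and that of Mylip wholly above it, while those of Nr1h3 and Abcg1 include 0.

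Nr1h3 (probe set 10484987) encodes LXR-alpha, the receptor itself. Its log2 values were 3.70, 4.50 and 4.21 in the dendritic arrays, against 4.54, 4.48 and 4.74 in the macrophage arrays. The populations overlapped, and all 6 values lay below the median of all probe sets on any array (4.79 to 4.96). The difference was -0.45 ± 0.20 (SE, n = 3 arrays per population; limma adjusted p = 0.169), with a 95% interval from -0.90 to 0.0036. The lowest array was dendritic replicate 1, and leaving it out gave -0.23 (adjusted p = 0.325). There are no detection calls, and RMA compresses differences of probe sets this dim.

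Of LXR's partners, the dimer chain Rxra was lower in the dendritic population. It read 5.78, 6.02 and 6.19 in dendritic arrays, against 7.17, 7.61 and 7.49 in macrophage arrays, a difference of -1.43 ± 0.16 (limma adjusted p = 0.000257). The other RXR chains, Rxrb (0.13 ± 0.16) and Rxrg (0.11 ± 0.15), were not called, and the second LXR gene, Nr1h2, was not analysed here. Rxrg read only 3.35 to 3.77, below the median of all probe sets on any array, so the limit given for Nr1h3 holds for it. Among the coregulators the co-activator Ncoa2 (1.21 ± 0.16) and the corepressor subunit Tbl1x (1.04 ± 0.13) were higher, and Tbl1xr1, the close relative of Tbl1x, was lower (-0.85 ± 0.16). Over all 11 measured partners and coregulators 4 (36.4%) were higher and 2 (18.2%) lower, against 9.98% and 11.6% of all genes, with a median log2 difference of 0.13. The call of Gps2, a corepressor subunit and one of the 4 higher genes, was lost in 4 of 16 alternatives, and Hdac3, a deacetylase of the same complex, passed as a higher gene under a replicate block (0.36, limma adjusted p = 0.0472). Both were singled out after their values were seen.

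The transporters Abca1 and Abcg1 did not share a pattern. Abca1 (probe set 10512949) exports cholesterol and phospholipid to lipid-poor apolipoprotein A-I. It read 6.89, 5.61 and 4.58 in the dendritic arrays, against 8.86, 7.78 and 7.42 in the macrophage arrays. Every dendritic value lay below every macrophage value, with a gap of 0.53 between the nearest arrays, and within each population the arrays spread widely (SD 1.16 in dendritic and 0.75 in macrophage arrays, n = 3 each). The mean was 5.02-fold lower in the dendritic population, a log2 difference of -2.33 ± 0.55 (limma adjusted p = 0.0140). Leaving out dendritic replicate 2 ended the call (adjusted p = 0.0547), as did testing all probe sets (0.0519), within a range of 7.20e-05 to 0.0547 over 16 alternatives. Without dendritic replicate 1 the difference was -2.93. Replicate 1 held the highest Abca1 value of each population, as it held the highest sum of neutrophil markers; with replicate 1 left out on both sides, which was decided after the values were known, the difference was -2.51 (adjusted p = 0.000368).

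Abcg1 (probe set 10443730) passes cholesterol to mature high-density lipoprotein particles. It read 8.60, 8.50 and 8.39 in the dendritic arrays, against 8.41, 8.76 and 8.54 in the macrophage arrays. The populations overlapped, and no array stood more than 0.19 from its population mean. The difference was -0.07 ± 0.14 (limma adjusted p = 0.836), with a 95% interval from -0.38 to 0.24, so a difference as large as that of Abca1 lies outside it. The change of Abca1 was 2.26 below that of Abcg1 on the log2 scale, taken within each array. An exact two-sided permutation test of that difference gave p = 0.1, the smallest that 3 arrays against 3 allow.

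**Figure D2:**
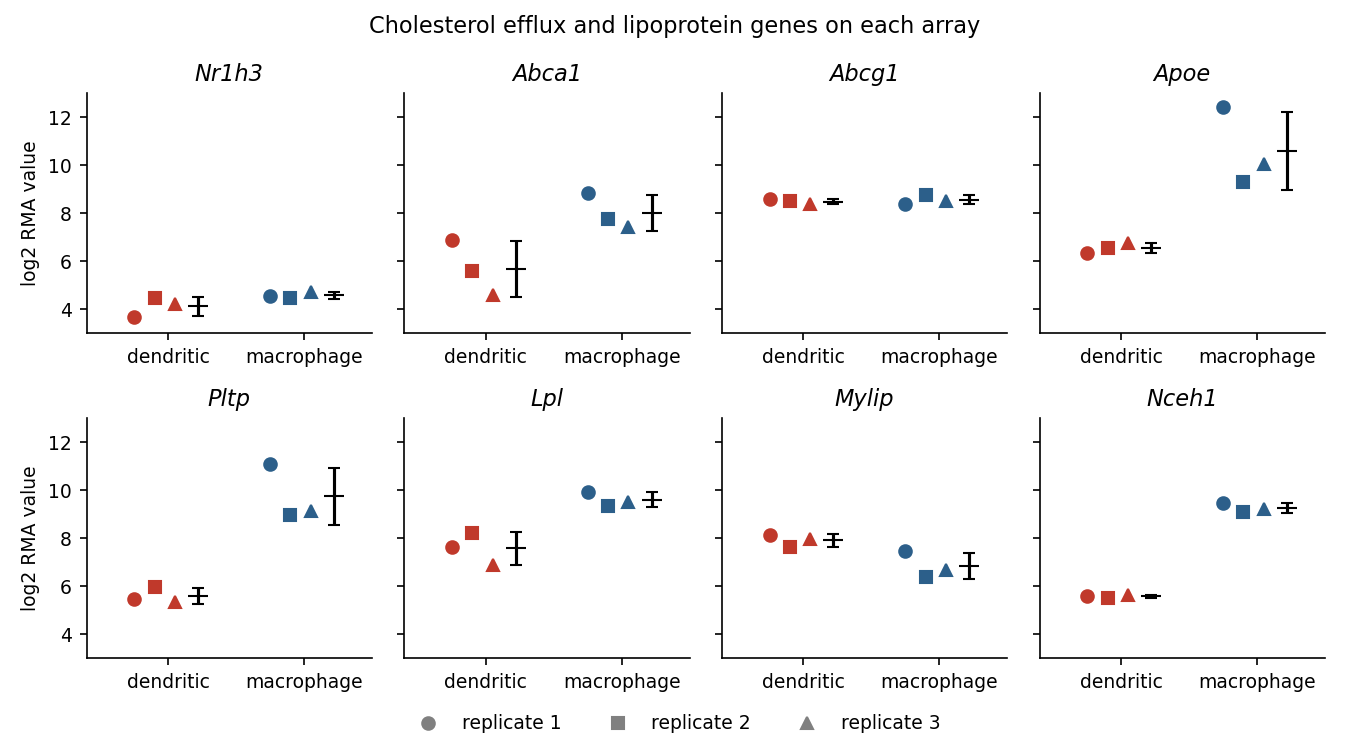
Log2 RMA value of each gene (y axis) on the 3 dendritic (red) and 3 macrophage (blue) arrays, with symbols for the replicate numbers and bars for mean ± SD. The populations are clearly apart for Apoe, Pltp and Nceh1, nearer for Abca1, Lpl and Mylip, and overlap for Nr1h3 and Abcg1.

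Among the secreted proteins, Apoe (probe set 10560624) encodes apolipoprotein E, which macrophages secrete as a cholesterol acceptor. It read 6.37, 6.55 and 6.78 in the dendritic arrays, against 12.45, 9.31 and 10.05 in the macrophage arrays. The dendritic arrays lay within 0.41 of each other, while the macrophage arrays spanned 3.14, with replicate 1 far above the rest. The mean was 16.4-fold lower in the dendritic population, a log2 difference of -4.04 ± 0.65 (limma adjusted p = 0.00187). Without macrophage replicate 1 the difference was -3.12 (adjusted p = 2.35e-05), and without macrophage replicate 2 it was -4.69 (0.000613). Apoe was called in all 16 alternatives.

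Apoe lies in a cluster with Apoc1, Apoc4 and Apoc2 on chromosome 7 in RefSeq's gene table, and the neighbours measured did not show a difference of that size. Apoc1, a small apolipoprotein and LXR target, read 3.69, 4.24 and 4.05 in dendritic arrays, against 5.03, 4.13 and 4.48 in macrophage arrays. That is -0.55 ± 0.23 with overlapping populations (limma adjusted p = 0.146), and its highest value was again that of macrophage replicate 1. Every other value of Apoc1 lay below the median of all probe sets on any array (4.79 to 4.96). RMA compresses differences of probe sets this dim, so a larger difference in Apoc1 could be missed. Apoc4 differed by -0.14 ± 0.22 (limma adjusted p = 0.787). These neighbours were picked for their position after their values were seen, and whether Apoe changed more than they did was not tested.

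Pltp (probe set 10489569) encodes phospholipid transfer protein, which moves phospholipid between lipoproteins. It read 5.47, 5.96 and 5.33 in the dendritic arrays, against 11.11, 8.96 and 9.15 in the macrophage arrays. The nearest arrays of the populations were 3.005 apart. The mean was 17.8-fold lower in the dendritic population, a log2 difference of -4.16 ± 0.49 (limma adjusted p = 0.000307), and -3.47 without macrophage replicate 1, again the highest array (adjusted p = 6.15e-06).

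Lpl (probe set 10572130) encodes lipoprotein lipase, which frees fatty acids from triglyceride-rich lipoproteins. It read 7.64, 8.22 and 6.87 in the dendritic arrays, against 9.95, 9.35 and 9.51 in the macrophage arrays. The SD was 0.68 over dendritic arrays and 0.31 over macrophage arrays (n = 3 each), and the populations were 1.14 apart. The mean was 4.09-fold lower in the dendritic population, a log2 difference of -2.03 ± 0.31 (limma adjusted p = 0.00135). The maturation factor Lmf1, needed for active lipase, was lower by a log2 difference of -0.94 ± 0.19 (adjusted p = 0.00732). Gpihbp1, which anchors the enzyme on capillary endothelium, differed by 0.16 ± 0.17 and was not called. Lmf1 and Gpihbp1 were singled out after their values were seen.

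Nceh1 (probe set 10491083) encodes neutral cholesterol ester hydrolase, which takes part in freeing stored cholesterol for efflux. It read 5.61, 5.52 and 5.64 in the dendritic arrays, against 9.47, 9.09 and 9.22 in the macrophage arrays. Arrays of a population lay within 0.12 of each other for the dendritic and 0.38 for the macrophage arrays, and the populations were 3.45 apart. The mean was 12.7-fold lower in the dendritic population, a log2 difference of -3.67 ± 0.14 (limma adjusted p = 4.81e-07). Over the 16 alternatives the difference ran from -3.76 to -3.56, the narrowest range among the 5 lower genes. The lysosomal counterpart, the acid lipase Lipa, was lower too. Lipa read 6.46, 5.91 and 5.71 in dendritic arrays, against 9.85, 9.03 and 9.36 in macrophage arrays, a difference of -3.39 ± 0.25 (limma adjusted p = 1.67e-05).

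Mylip (probe set 10404874), also called IDOL, is the ubiquitin ligase that marks lipoprotein receptors, Vldlr and Lrp8 among them, for degradation. It read 8.14, 7.61 and 7.97 in the dendritic arrays, against 7.46, 6.39 and 6.68 in the macrophage arrays. The populations were only 0.16 apart, between dendritic replicate 2 and macrophage replicate 1. The mean was 2.09-fold higher in the dendritic population, a log2 difference of 1.06 ± 0.26 (limma adjusted p = 0.0180). The call was lost when all probe sets were tested (0.0568), without dendritic replicates 1 (0.0504) or 3 (0.0595), and without macrophage replicates 2 (0.0623) or 3 (0.0682), so 11 of 16 alternatives kept it. The lowest adjusted p over the alternatives was 0.000831. Its change lay 3.39 above that of Abca1 on the log2 scale within arrays, with an exact two-sided permutation p = 0.1, the smallest that this design allows.

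Of the receptors that Mylip acts on, Lrp8 was higher in the dendritic population as well. It read 6.56, 7.00 and 7.90 in dendritic arrays, against 5.23, 5.76 and 5.64 in macrophage arrays, a difference of 1.61 ± 0.31 (limma adjusted p = 0.00479). Vldlr, another, differed by -0.06 ± 0.12 (adjusted p = 0.852) and read between 3.86 and 4.06 on all arrays. Those values lay below the median of all probe sets on any array (4.79 to 4.96), so a difference in Vldlr could be missed. Transcript values do not show the receptor proteins, on which Mylip acts.

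Most of the genes also varied together over the macrophage arrays, but not over the dendritic arrays. Macrophage replicate 1 held the highest macrophage value for 6 of the 8 genes (Abca1, Apoe, Pltp, Lpl, Mylip and Nceh1), where it was the highest macrophage array for 30.7% of all genes. It stood above the macrophage mean by 1.84 for Apoe, 1.37 for Pltp, 0.84 for Abca1 and 0.61 for Mylip. Macrophage replicate 2 held the lowest macrophage value for 6 of the 8, against 25.6% of all genes. In the dendritic arrays no replicate led: replicates 1 and 2 held the highest value for 3 genes each and replicate 3 for 2. Macrophage replicate 1 was the lowest macrophage array for fatty acid desaturases that LXR is known to control, as it was for 47.0% of all genes. Scd1 was picked after its values were seen. Scd1 read 6.01 in macrophage replicate 1, with 8.32 and 9.06 in replicates 2 and 3. Its relative Scd2 read 8.55 there, with 9.83 and 9.84 in the others. Scd1 differed between populations by -0.67 ± 0.65 and was not called (limma adjusted p = 0.603). It was called without macrophage replicate 1 (-1.57, adjusted p = 0.00471). The summed value of the neutrophil markers was highest in replicate 1 of each population, and so was the eosinophil marker Prg2. What part neutrophils or eosinophils had in these array differences was not tested.

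**Figure D3:**
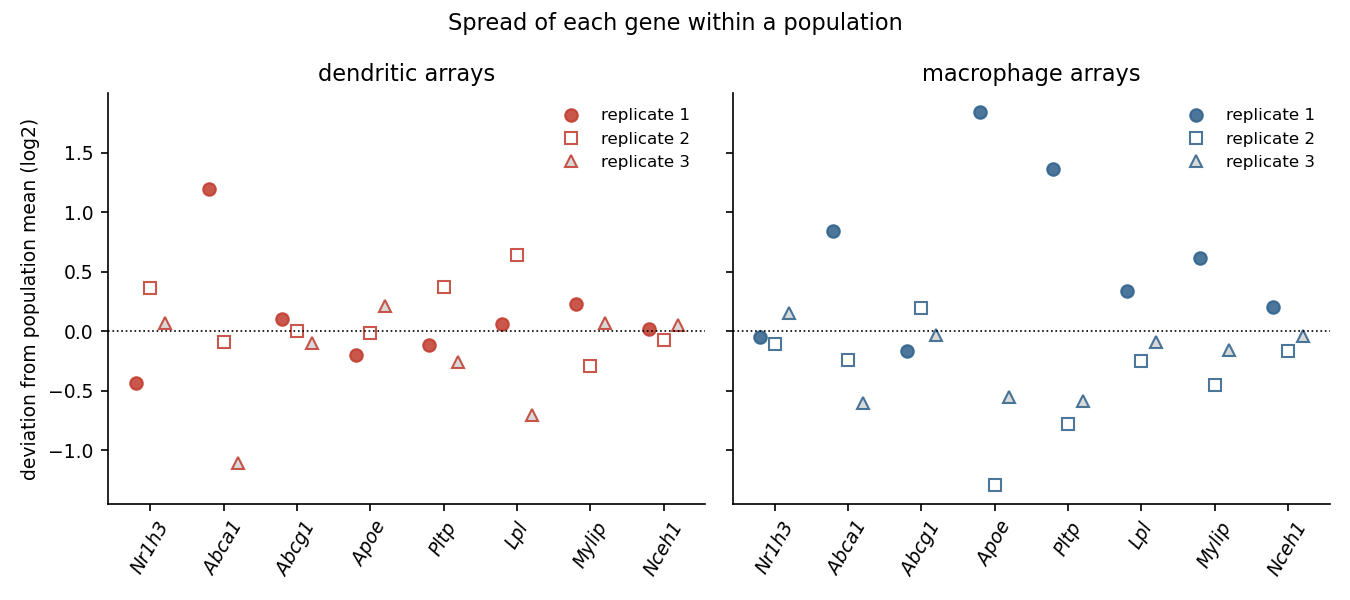
Deviation of each array from its population mean (y axis, log2) for each gene, dendritic arrays on the left and macrophage arrays on the right. Macrophage replicate 1 is highest for 6 of the 8 genes, by up to 1.84 for Apoe, while the dendritic arrays have no common order.

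Other genes listed here as LXR targets were lower or not called. Of 14 measured, 5 (35.7%) were lower and none higher, against 11.6% and 9.98% of all genes, with a median log2 difference of -0.58. With the replicate number as a block, the transporter Abca7, named for that change alone, was called higher (0.43, limma adjusted p = 0.0381). Abca7 was called in 4 of 16 alternatives, and Fasn, not called in the main fit, was called lower in 4 of 16. The apoptotic cell receptor Mertk had the largest difference (-4.20 ± 0.15), followed by Scd2 (-2.45 ± 0.31). Mertk is also one of the macrophage markers above, so its place in this count is not independent of that check. The phospholipid-remodelling enzyme Lpcat3 (-2.14 ± 0.23), the phosphodiesterase Smpdl3a (-1.18 ± 0.28) and the transglutaminase Tgm2 (-0.86 ± 0.20) were the other lower genes, named because the count is small. The calls of Smpdl3a (without dendritic replicate 3, adjusted p = 0.0546, and with all probe sets tested, 0.0502) and Tgm2 (with array weights, 0.0526) were lost in those settings. The lipogenic regulator Srebf1 (-0.31 ± 0.14) and the sterol transporters Abcg5 (0.21 ± 0.14) and Abcg8 (0.03 ± 0.15) were not called, and were picked as examples after their values were seen. Abcg5 (3.71 to 4.20) and Abcg8 (3.72 to 4.15) lay below the median of all probe sets on any array.

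Genes of lipoprotein uptake and of cholesterol movement inside the cell were lower more often than higher. Of 9 receptors and uptake genes 6 (66.7%) were lower and 1, Lrp8, was higher (11.1%), against 11.6% lower and 9.98% higher of all genes, with a median log2 difference of -1.93. The fatty acid and oxidised lipoprotein receptor Cd36 differed by -3.33 ± 0.35, and the scavenger receptor Msr1 by -5.83 ± 0.20. Msr1, too, is one of the macrophage markers used above to check the labels, and is counted again here. Of 19 intracellular transport genes 10 (52.6%) were lower and 2 (10.5%) higher, the share of higher genes being near that of all genes, with a median of -0.74. The oxysterol-binding protein relative Osbpl9, named for that change alone, was called lower with the replicate block (-0.48, limma adjusted p = 0.0235). The caveolar protein Cav1 (-3.70 ± 0.23) and the sterol carrier Stard5 (-2.21 ± 0.16) were lowest, and the sterol transfer protein Gramd1b (1.12 ± 0.13) and the mitochondrial protein Tspo (1.12 ± 0.14) were the higher genes. Of the endosomal cholesterol exporters, Npc1 was lower. It read 6.99, 7.32 and 7.27 in dendritic arrays, against 9.02, 9.23 and 9.13 in macrophage arrays (-1.93 ± 0.14, limma adjusted p = 1.48e-05), while Npc2 differed by 0.02 ± 0.13 and was not called. Both were picked after their values were seen, and the difference between them was not tested.

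Among 14 lipases and lipase partners 6 (42.9%) were lower and 1 (7.14%) higher, against 11.6% and 9.98% of all genes, with a median of -0.24. One of the 6, the lipase inhibitor Angptl4 (-0.66 ± 0.19), was called in only 6 of 15 alternatives and is named for that. Lipa and the monoacylglycerol lipase Mgll (-3.02 ± 0.32) were lowest, and the hormone-sensitive lipase Lipe was the higher gene (1.25 ± 0.16). Of 7 oxysterol and late sterol synthesis enzymes 2 were called (28.6%, near the 21.6% of all genes), both lower: Dhcr7 (-1.56 ± 0.27) and Ebp (-1.39 ± 0.15), both of cholesterol synthesis. The oxysterol-forming enzymes Ch25h (0.37 ± 0.13) and Cyp27a1 (-0.58 ± 0.22) were picked as examples after their values were seen and were not called (limma adjusted p = 0.0791 and 0.112). Ch25h read 3.60 to 4.22, below the median of all probe sets on any array. None of 11 apolipoproteins and other plasma lipoprotein genes was called with population alone in the model (limma, 2 at an unadjusted p under 0.05). With the replicate number as a block, clusterin (Clu, 2.13, adjusted p = 0.0308) and Apoa2 (-0.48, adjusted p = 0.0215), both apolipoprotein genes, were called. Clu, singled out after its values were seen, read 9.54, 6.98 and 5.89 in dendritic arrays, against 5.31, 5.53 and 5.18 in macrophage arrays (2.13 ± 0.74, limma adjusted p = 0.0769). Its populations did not overlap, and it was called in 5 of 16 alternatives. The difference was 1.09 without dendritic replicate 1 (adjusted p = 0.0276), the highest array, and 2.92 without dendritic replicate 3 (0.0129). Over the 85 genes measured on these 7 lists, 31 (36.5%) were lower, against 11.6% of all genes, and 8 (9.41%) were higher, near the 9.98% of all genes.

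**Figure D4:**
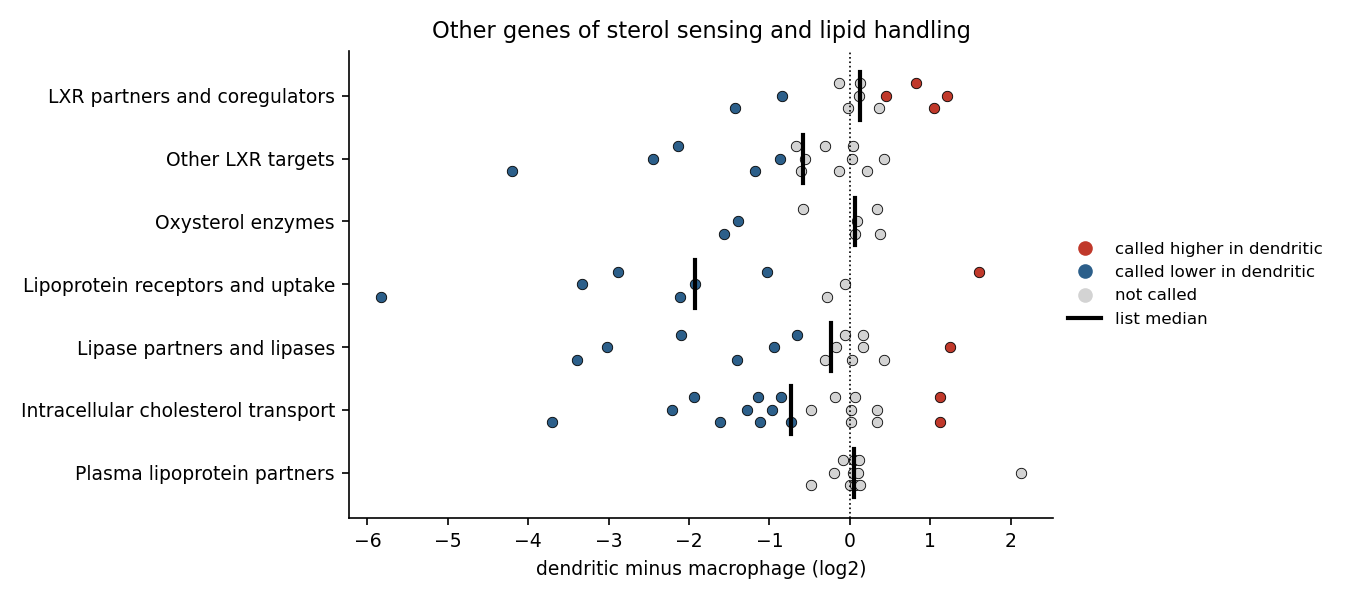
Difference between populations (x axis, dendritic minus macrophage, log2) for each measured gene of 7 lists of sterol sensing and lipid handling, with points coloured by call and list medians as black bars. The median of lipoprotein receptors and uptake lies at -1.93, and those of LXR partners, oxysterol enzymes and plasma lipoprotein partners lie between 0.05 and 0.13.

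The gene with the most similar profile over the 6 arrays was found for each gene by the Euclidean distance between log2 values centred on their mean, among 17090 other named genes. It was Txnip for Abca1 (distance 0.99), Ms4a7 for Apoe (0.98), Tlr8 for Pltp (0.84), Stard9 for Lpl (0.45), Atp8b4 for Nceh1 (0.39) and Parp8 for Mylip (0.33). For Nr1h3 it was Kcnq3 (0.20) and for Abcg1 it was Wfdc6b (0.09), both with small differences between populations. With 2 populations, such a distance mostly reflects the difference between them, and it is given as a description.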

How the data were processed

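The deposited values are log2 values per probe set and array, deposited by the authors. The submitters' processing notes name RMA and R 3.0.2. The method subtracts background, applies quantile normalization and combines the probes of a set. No source used here says which arrays went into it, how probe sets were defined, whether any were filtered, or the genome build. Of 35556 probe sets, 21789 carry 1 symbol in the platform's gene table, 1621 several and 12146 none. Symbols were checked through Entrez identifiers in a RefSeq table of GRCm38.p6 (21698 found, 0 changed). For the 999 genes with several probe sets the one with the highest mean was kept, leaving 19938 genes.

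All genes were tested with limma 3.58.1 in R 4.3.3 (lmFit and eBayes, two-sided) on the 6 arrays. The model held population alone, no gene was filtered by level, and p-values were adjusted by Benjamini-Hochberg over all genes. The fit was tested on simulated data first. The genes and lists were chosen with earlier results of these data known. Named besides the 8 genes are RXR chains, receptors acted on by Mylip, up to 2 called genes per list and direction with the largest difference, the nearest profile of each gene, and genes said to be picked afterwards. Of the 4 within-array pairs planned for the exact test, those with Soat1 and Apoc2 were not run.

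Deviations from the population means of arrays with the same replicate number correlated at 0.385, 0.147 and 0.272 across genes. All were over 0.1, the threshold set for pairing, but no label explains the numbers. Arrays with different numbers correlated at -0.320 to 0.155, the highest, between dendritic replicate 2 and macrophage replicate 3, lying above the matched value of 0.147. These correlations thus do not settle whether the numbers pair the arrays. The main fit and the exact tests ignored the numbers, and the replicate block was run as an alternative. With the block the standard error was 0.17 for Abca1 (limma adjusted p = 7.20e-05), against 0.55 in the main fit. For Mylip it was 0.15 (limma adjusted p = 0.00152), against 0.26. Figures were drawn with matplotlib 3.10.9.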

Additional observations from a re-analysis of the deposited data

How the results depend on the processing

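Each of the 8 genes was refitted under 16 alternatives, 1 of them added after seeing the data. Of 127 values, 120 stayed on the same side of the threshold, with the direction kept wherever a gene was called, and 7 lost a call; the cause was not tested. Nr1h3 has no value with genes under the median level left out. With the replicate block, 5 of the 8 genes were lower and 1 higher, and no call among the 8 changed; over the 85 list genes it gave 33 lower and 11 higher. Testing all probe sets left Abca1 at -2.33 (adjusted p = 0.0519) and Mylip at 1.06 (0.0568), so that 4 genes were lower and 0 higher. The standard error of Abca1 was 0.61 there, against 0.55. Leaving out single arrays gave -2.93 to -1.77 for Abca1, 0.84 to 1.37 for Mylip, and 0 to 1 higher genes, with fewer arrays in the fit. The uncalled Abcg1 changed sign without macrophage replicate 2 (0.03). Counts over all genes ran from 1824 to 3082 lower and from 1487 to 2819 higher, and those over the 85 list genes from 28 to 33 lower and from 7 to 12 higher. There are no detection calls, so how far background limits a dim probe set such as that of Nr1h3 is not known.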
